A study of Mus with 4 samples.

Results

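The COPII coat is the protein shell that forms transport vesicles on the endoplasmic reticulum (ER), and its genes Sar1a, Sar1b, Sec23a, Sec23b, Sec24a, Sec24b, Sec24c, Sec24d, Sec13 and Sec31a were followed here in podocytes that overexpressed OASIS. They were chosen by gene symbol in the deposited expression table, with every probe of each gene. These 10 genes, of 26893 named genes on the array, had 22 of its 56605 probes. All 22 probes passed the filter on dim probes and were among the 31598 probes tested.

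COPII vesicles carry newly made secretory and membrane proteins from the ER towards the Golgi. The small GTPase Sar1 binds GTP, inserts into the ER membrane and recruits Sec23 and Sec24, which form the inner coat. Sec24 binds cargo, Sec23 stimulates GTP hydrolysis by Sar1, and Sec13 and Sec31 assemble into the outer cage. Mammals have several Sar1, Sec23 and Sec24 paralogs. Podocytes are the glomerular epithelial cells that secrete and renew part of the glomerular basement membrane.

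The cells were an immortalised murine podocyte cell line, differentiated under nonpermissive conditions. Each sample was given a lentivirus, either for Venus, a fluorescent protein used as the control, or for an active, N-terminal fragment of OASIS (Creb3l1), a transcription factor that is released from the ER membrane by cleavage. RNA was taken 48 h after the vector was added, and the study searched these arrays for genes downstream of OASIS. There were 2 Venus and 2 OASIS samples, each on its own 1-colour array. The model is a single cell line under a viral vector, and the labels do not say whether the samples came from separate cultures. The p-values therefore measure the spread between these samples, which may be technical.

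Of 59305 spots that are not controls, 33938 to 34418 were well above background on an array, and 0 were saturated. Over all tested probes, which are no replicates of each other, Pearson's r was 0.997 for the Venus pair of arrays, 0.995 for the OASIS pair and 0.973 to 0.978 across groups. The Creb3l1 probe did not pass the threshold (log2 fold change -0.17, SE 0.10, adjusted p = 0.298 in limma), and whether it lies inside the fragment carried by the vector is not stated, so that it does not check the labels. Of the podocyte markers, Actn4, Cd2ap, Podxl, Synpo and Wt1 were well above background on all 4 arrays, whereas Ptpro, which encodes a receptor phosphatase of mature podocytes, was not on any. Wt1 was dim with Venus and changed by 4.62 log2 units with OASIS (SE 0.21, adjusted p = 0.00215 in limma). Its other probe changed by -0.16 (SE 0.11). Cd2ap changed by 1.09 (SE 0.11, adjusted p = 0.00832 in limma) on its brightest probe. Its other probes changed by -0.37 (SE 0.15) and 0.31 (SE 0.10). Actn4, Podxl and Synpo did not pass the threshold on any tested probe.

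OASIS overexpression was accompanied by higher expression of COPII coat genes from each layer of the coat. Sec24d, a cargo-binding subunit, rose 6.58-fold, and Sec23a and Sar1a rose 4.19-fold and 4.18-fold. Sec31a of the outer cage rose 2.02-fold, close to the threshold, and lost its call in 5 of 14 alternative ways of processing all arrays. The other cage gene, Sec13, rose 1.67-fold and was not called. No COPII coat gene was called lower. Here each gene was represented by the probe that was brightest on average over the arrays. A gene was called when its fold was over 2.0 or under 0.5 with an adjusted p under 0.1, the limits in the study's methods. On its second probe, nearly as bright, Sar1a rose 1.54-fold and was not called.

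In all, 4 of the 10 genes were called higher, against 6.21% of the 16318 genes tested, and 0 were called lower, against 1.85%. By the adjusted p alone, 7 genes were higher, where 18.6% of all genes were, 1 was lower, where 18.1% were, and 2 did not pass. At an unadjusted p under 0.05 in limma, without the fold limit, the same gene, Sec24b, was lower, and the methods' t-test also called 0 lower. The median log2 fold change was 0.72 over the 10 genes and -0.06 over all genes tested. Both OASIS arrays lay above both Venus arrays for 9 genes, as they did for 31.5% of all genes, and below them for 1 gene, Sec24b, as they did for 39.4% of all genes.

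**Figure D1:**
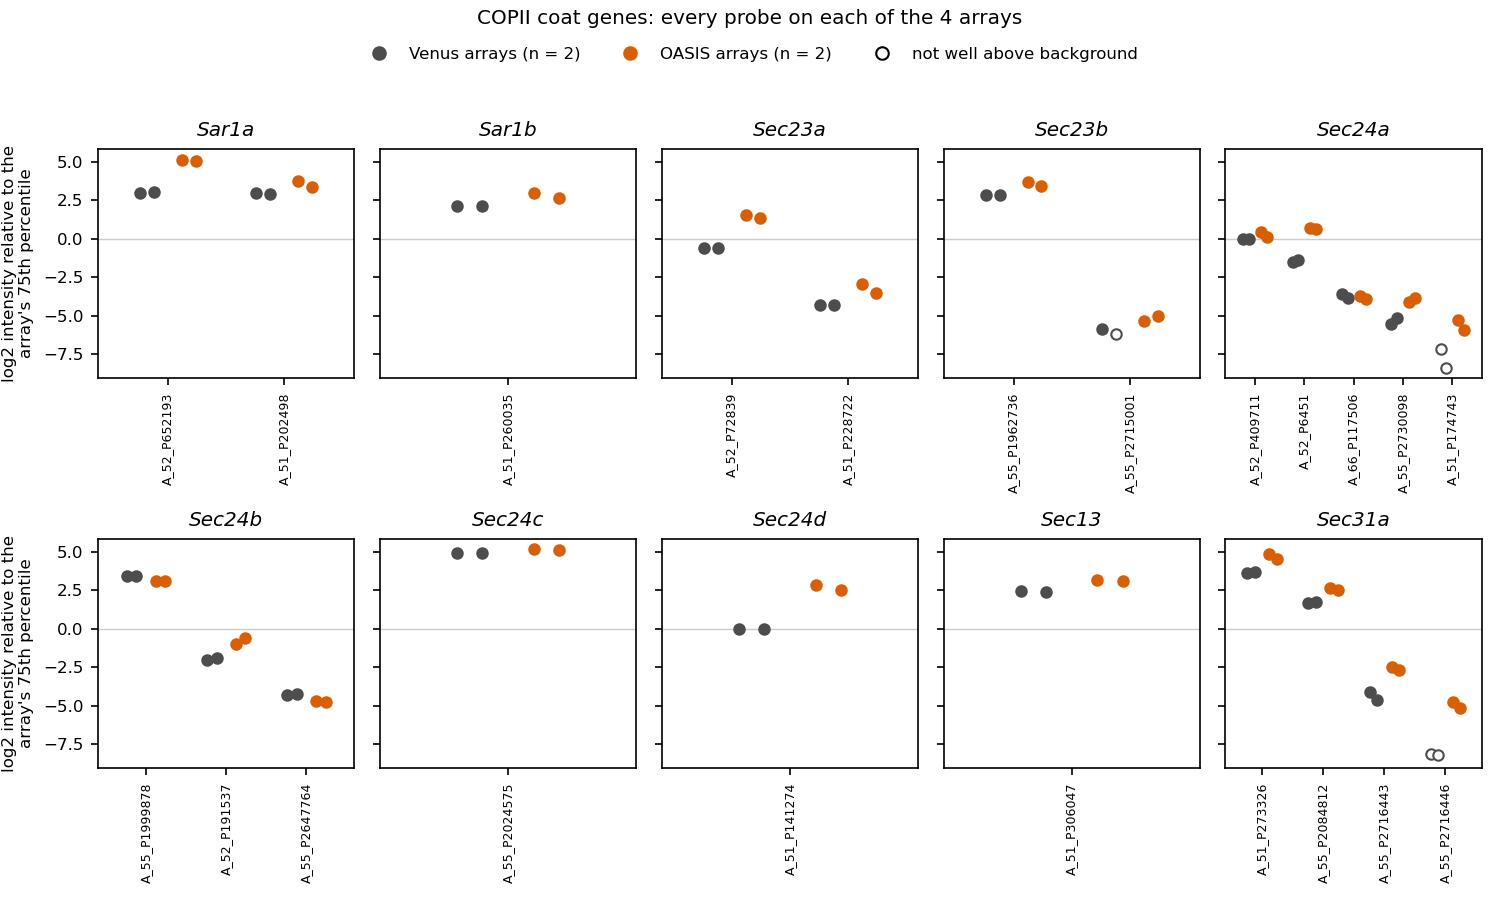
Normalized intensity of each COPII coat probe on each array, with 1 panel per gene. The y axis is log2 intensity relative to the array's 75th percentile, grey points are the 2 Venus arrays, orange points the 2 OASIS arrays, and open points were not well above background. The OASIS points of Sec24d (2.82 and 2.53) stand clear of its Venus points (-0.05 and -0.03), while those of Sec24c (5.15 and 5.08) lie close to its Venus points (4.90 and 4.90).

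The GTPase Sar1a (chromosome 10 qB4) was measured by 2 probes. Probe A_52_P652193 read 2.99 and 3.04 with Venus and 5.11 and 5.04 with OASIS, in log2 units with the array's 75th percentile at 0, the scale of each probe value below. The groups lay far apart, and the log2 fold change was 2.06 (SE 0.10, adjusted p = 0.00261). The other probe, A_51_P202498, read 2.98 and 2.88 with Venus and 3.76 and 3.34 with OASIS. Its groups did not overlap either, but the log2 fold change of 0.62 (SE 0.17, adjusted p = 0.0645) was under the fold limit. Both probes are listed for the same RefSeq transcript. Sar1a thus passed the threshold on 1 of its 2 probes.

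Sar1b (11 qB1.3), the second Sar1 GTPase, which is required for export of very large lipoprotein cargo in the intestine, had 1 probe, A_51_P260035. It read 2.10 and 2.12 with Venus and 2.96 and 2.63 with OASIS. The OASIS arrays were both higher and farther apart than the Venus arrays. The log2 fold change was 0.69 (SE 0.14, adjusted p = 0.0348), which did not reach the fold limit.

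Sec23a (12 qC1), the GTPase-activating subunit of the inner coat, was called on both of its probes. The brighter, A_52_P72839, read -0.63 and -0.62 with Venus and 1.55 and 1.34 with OASIS, a log2 fold change of 2.07 (SE 0.12, adjusted p = 0.00332). The dimmer, A_51_P228722, read -4.30 and -4.32 with Venus and -2.94 and -3.51 with OASIS, a log2 fold change of 1.09 (SE 0.21, adjusted p = 0.0294). On each probe both OASIS arrays were above both Venus arrays, and the OASIS arrays differed from each other more on the dimmer probe. The dimmer probe's call was lost without Venus array 1 (adjusted p = 0.113), Venus array 2 (adjusted p = 0.113) or OASIS array 1 (log2 fold change 0.80). That of the brighter probe was kept.

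Sec23b (2 qG1), the other Sec23, was not called. Its brighter probe, A_55_P1962736, read 2.84 and 2.86 with Venus and 3.66 and 3.39 with OASIS, a log2 fold change of 0.68 (SE 0.13, adjusted p = 0.0294). The dimmer, A_55_P2715001, was well above background on only 1 Venus array and read -5.86 and -6.20 with Venus and -5.38 and -5.05 with OASIS (log2 fold change 0.82, SE 0.18, adjusted p = 0.0389). Neither probe's groups overlapped, and both changes were under 2-fold. The local background of the brighter probe was marked as an outlier on 2 of the 4 arrays.

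Sec24d (3 qG1) had the largest change of the 10 genes by brightest probe. Its only probe, A_51_P141274, read -0.05 and -0.03 with Venus and 2.82 and 2.53 with OASIS. The gap between the groups was 2.56, well over the spread within either. The log2 fold change was 2.72 (SE 0.14, 95% interval 2.36 to 3.08, adjusted p = 0.00274), and 214 of 16318 genes had a higher one. The local background of this spot was marked as an outlier on both Venus arrays.

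Sec24c (14 qA3), the paralog closest to Sec24d, was not called on its 1 probe, A_55_P2024575. It read 4.90 and 4.90 with Venus and 5.15 and 5.08 with OASIS. Although the groups did not overlap, the log2 fold change was 0.21 (SE 0.10, adjusted p = 0.192), with a 95% interval from -0.05 to 0.47.

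For Sec24a (11 qB1.3), the result depended on the probe. The brightest of its 5 probes, A_52_P409711, read 0.01 and -0.03 with Venus and 0.45 and 0.09 with OASIS. OASIS array 2 was hardly above the Venus arrays, and the log2 fold change was 0.28 (SE 0.15, adjusted p = 0.235). Probe A_52_P6451, listed for the same transcript variant, read -1.55 and -1.39 with Venus and 0.72 and 0.63 with OASIS. There the groups were more than 2 log2 units apart, and the log2 fold change was 2.14 (SE 0.11, adjusted p = 0.00286). Sec24a rose on this probe and not on the brightest.

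The other Sec24a probes differed as well. A_55_P2730098, designed to a cDNA clone, read -5.52 and -5.15 with Venus and -4.09 and -3.87 with OASIS, a log2 fold change of 1.35 (SE 0.17, adjusted p = 0.012). A_66_P117506, listed for transcript variant 2, read -3.57 and -3.86 with Venus and -3.70 and -3.90 with OASIS, so that the groups overlapped (log2 fold change -0.09, SE 0.15, adjusted p = 0.70). A_51_P174743, listed for an Ensembl transcript, read -7.14 and -8.38 with Venus, where it was not well above background, and -5.28 and -5.91 with OASIS. It was at least 1.45-fold higher with OASIS, which is under the fold limit. This bound takes the lowest signal well above background on each Venus array. The adjusted p of 0.0364 in limma belongs to the fitted log2 fold change of 2.17, which uses the dim Venus values. The probe passed the filter on dim probes only through the OASIS arrays. Its call was lost without OASIS array 1 (adjusted p = 0.122).

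Sec24b (3 qG3), the paralog closest to Sec24a, was the only member with probes past the adjusted p in both directions. The brightest, A_55_P1999878, read 3.41 and 3.40 with Venus and 3.11 and 3.10 with OASIS. The OASIS arrays were both slightly lower, with a log2 fold change of -0.30 (SE 0.10, adjusted p = 0.0868). A_55_P2647764 read -4.29 and -4.26 with Venus and -4.70 and -4.75 with OASIS, a log2 fold change of -0.45 (SE 0.10, adjusted p = 0.0379). A_52_P191537 read -2.02 and -1.89 with Venus and -1.003 and -0.64 with OASIS, and its log2 fold change of 1.14 (SE 0.16, adjusted p = 0.0148) passed the threshold. Without OASIS array 2 that change was 0.95, under the limit. All 3 probes are listed for the same RefSeq transcript and none had overlapping groups. The local background of the brightest probe was marked as an outlier on 3 of the 4 arrays.

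Sec13 (6 qE3), a cage subunit that is also part of the nuclear pore, had 1 probe, A_51_P306047. It read 2.41 and 2.36 with Venus and 3.16 and 3.10 with OASIS. The arrays of each group lay close together and the groups well apart. The log2 fold change was 0.74 (SE 0.10, adjusted p = 0.0138), with a 95% interval from 0.48 to 1.01, so that the 2-fold limit lay just inside the interval.

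Sec31a (5 qE4), the larger cage subunit, was measured by 4 probes, and every OASIS value was above every Venus value of the same probe. The brightest, A_51_P273326, read 3.63 and 3.66 with Venus and 4.82 and 4.50 with OASIS. Its log2 fold change of 1.01 (SE 0.14, adjusted p = 0.0148) barely passed the limit. It was 0.98 after quantile normalization, 0.99 after scaling to the median, 0.999 with the authors' scaled values, 0.996 without Venus array 1 and 0.85 without OASIS array 1, none of which passed. The adjusted p was 0.128 in the methods' t-test. The local background of this spot was marked as an outlier on all 4 arrays, and leaving such spots out gave the next probe and a log2 fold change of 0.92.

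That next probe, A_55_P2084812, is listed for the same transcript variant and read 1.68 and 1.73 with Venus and 2.66 and 2.52 with OASIS, a log2 fold change of 0.89 (SE 0.11, adjusted p = 0.0112). The other 2 Sec31a probes are dim and listed for Ensembl transcripts. A_55_P2716443 read -4.10 and -4.65 with Venus and -2.47 and -2.72 with OASIS, a log2 fold change of 1.78 (SE 0.22, adjusted p = 0.0113). A_55_P2716446 read -8.18 and -8.20 with Venus, not well above background, and -4.75 and -5.16 with OASIS. It was at least 2.25-fold higher with OASIS. The adjusted p of 0.00275 in limma belongs to its fitted log2 fold change of 3.24, which uses the dim Venus values. Sec31a was thus higher on each probe, and its size turned on the probe.

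**Figure D2:**
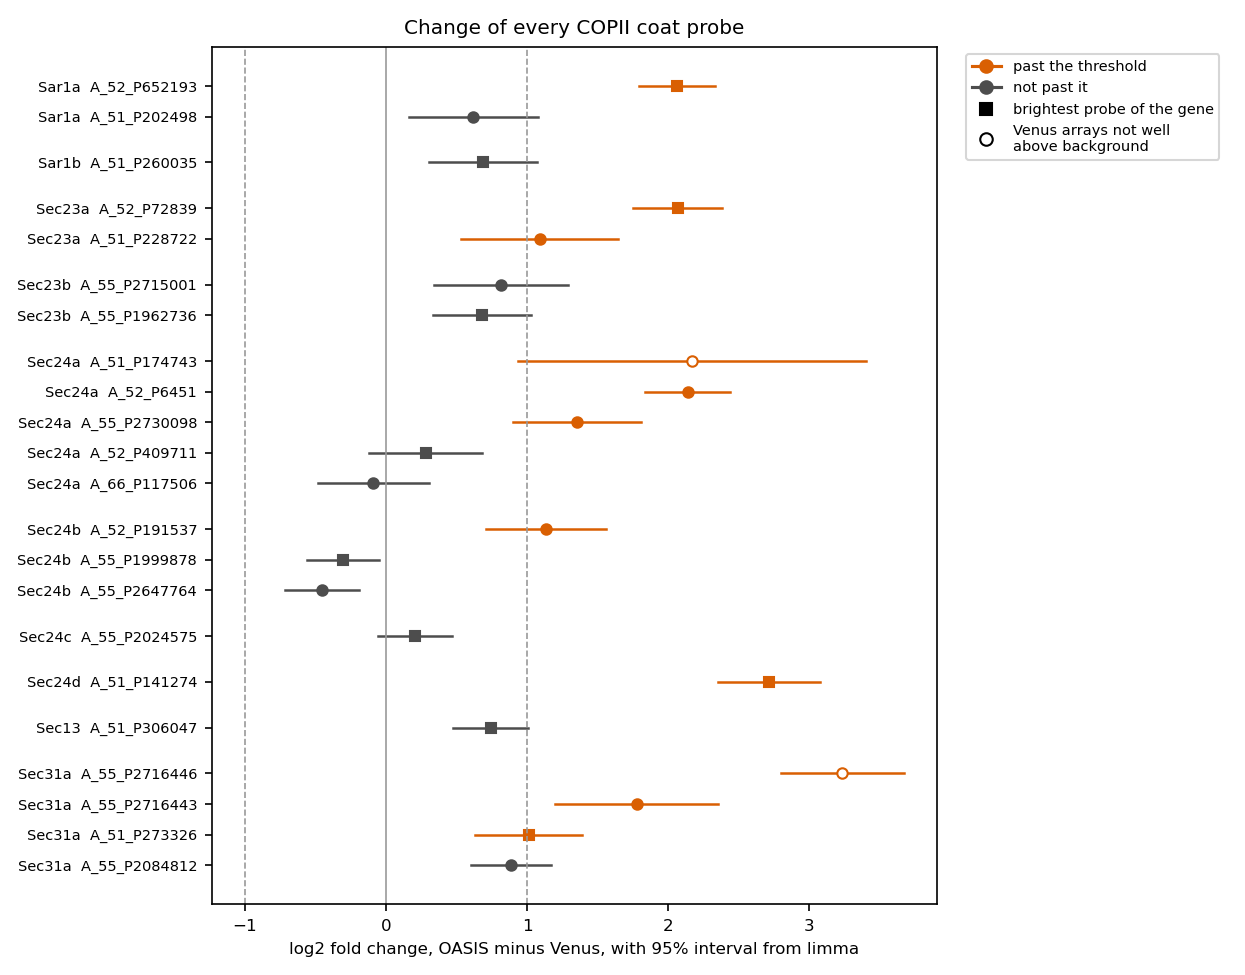
Log2 fold change (OASIS minus Venus, x axis) of each of the 22 COPII coat probes, with its 95% interval from limma. Squares are the brightest probe of a gene, orange marks passed the threshold, open marks were not well above background with Venus, and dashed lines show a 2-fold change. The 5 Sec24a probes run from -0.09 to 2.17 and the 3 Sec24b probes lie on both sides of 0.

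Probe by probe, 11 of the 22 COPII coat probes were called higher, where 5.89% of all probes were, and 0 were called lower. The share of all probes called lower was not counted, and by brightest probe 1.85% of all genes were. With the 2 probes that have only a bound counted at that bound, 10 were called higher. Those 2 passed the filter on dim probes only through the OASIS arrays. By the adjusted p alone, 17 probes were higher, where 17% of all probes were, 2 were lower, where 19.7% were, and 3 did not pass. The median log2 fold change was 0.95 over the 22 probes, 0.85 with the bounds, and -0.07 over all probes tested. Counting a gene by any of its probes, 6 COPII coat genes were called higher (Sar1a, Sec23a, Sec24a, Sec24b, Sec24d and Sec31a), where 8.63% of all genes were. Of these, Sec23a was called on both of its probes, and Sec24d on its only probe.

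Probes of a COPII coat gene often disagreed. Of the 6 members with at least 2 tested probes, the changes of Sar1a, Sec24a, Sec24b and Sec31a were spread over more than 1 log2 unit. For Sec31a this rested on the probe given only as a bound. Of all 7135 genes with at least 2 tested probes, 15.9% had changes spread over more than 1 log2 unit. The median spread was 1.52 for the 6 members and 0.31 for all such genes, which have different numbers of probes. Probes past the adjusted p in both directions were found for 1 member, Sec24b, and for 6.55% of all such genes. Which part of a transcript each probe binds was not analysed here.

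By brightest probe, paralogs of the coat changed by unequal amounts on these arrays. The difference between the brightest probes of 2 paralogs was taken on each array and set against its mean on the Venus arrays. Sec24d minus Sec24c was higher by 2.62 and 2.40 log2 units on the OASIS arrays, Sec23a minus Sec23b by 1.36 and 1.42, and Sar1a minus Sar1b by 1.25 and 1.501. For each of these pairs the Venus arrays lay within 0.0142 of their mean. Sec24a minus Sec24b was higher by 0.76 and 0.42. With 2 arrays a group, the exact two-sided permutation test cannot give a p below 0.333, and it gave 0.333 for each of the 4 pairs, also after Benjamini-Hochberg adjustment over them. With the mean of a gene's probes in place of the brightest, the difference was 0.65 for Sar1a minus Sar1b, 0.83 for Sec23a minus Sec23b and 1.04 for Sec24a minus Sec24b. The difference thus depended on the probe for these 3 pairs, and for Sec24d and Sec24c, with 1 probe each, this could not be examined. Over every combination of the paralogs' tested probes without those given as a bound, it ran from -0.0677 to 1.38 for Sar1a minus Sar1b, from 0.27 to 1.39 for Sec23a minus Sec23b and from -1.22 to 2.59 for Sec24a minus Sec24b.

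**Figure D3:**
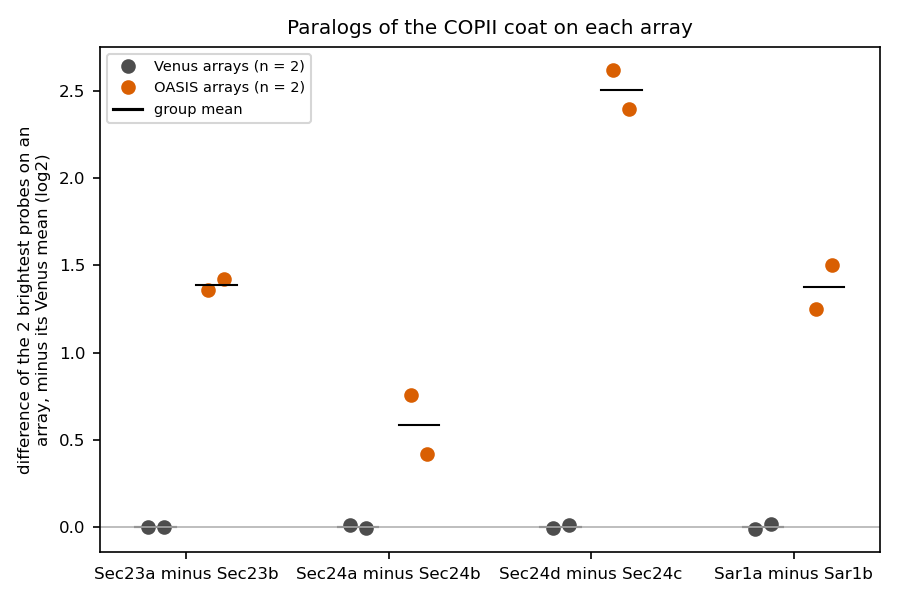
Difference between the brightest probes of 2 paralogs on each array, minus the mean of that difference on the Venus arrays (y axis, log2), for 4 pairs. Points are arrays and bars group means, at 2.51 for Sec24d minus Sec24c, 1.39 for Sec23a minus Sec23b, 1.38 for Sar1a minus Sar1b and 0.59 for Sec24a minus Sec24b on the OASIS arrays.

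The members also shared a difference between the OASIS arrays. By brightest probe, OASIS array 1 read higher than OASIS array 2 for 10 of 10 COPII coat genes and for 52.6% of all genes. The median difference was 0.24 log2 units for the members and 0.02 for all genes. Venus array 1 was above Venus array 2 for 3 of the 10 members and for 53.6% of all genes. The median difference between the Venus arrays was -0.01 for the members and 0.01 for all genes. On dimmer probes of Sec23b (A_55_P2715001), Sec24a (A_55_P2730098) and Sec24b (A_52_P191537), OASIS array 2 read higher than OASIS array 1.

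**Figure D4:**
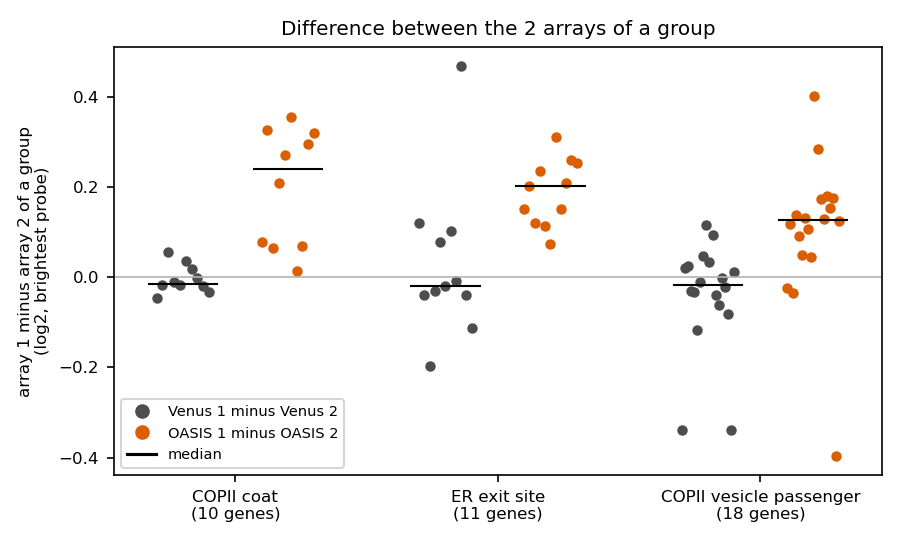
Difference between the 2 arrays of a group (array 1 minus array 2, log2, y axis) for each gene of 3 lists, by brightest probe. Orange points are OASIS, grey points Venus, and bars medians, at 0.24 for the COPII coat, 0.20 for ER exit sites and 0.13 for vesicle passengers with OASIS. The Venus medians lie between -0.01 and -0.02.

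Genes that act where COPII vesicles form are known as ER exit site genes. By brightest probe, 2 of 11 were called higher, Sec16a and Sec16b, which scaffold the sites, and 0 were called lower, where 6.21% and 1.85% of all genes were. By the adjusted p alone 10 were higher, where 18.6% of all genes were, and the median log2 fold change was 0.67. Sec16a read 2.62 and 2.63 with Venus and 3.76 and 3.61 with OASIS (log2 fold change 1.05, SE 0.11, adjusted p = 0.0082). Sec16b read -6.33 and -6.80 with Venus, not well above background on either array, and -1.48 and -1.69 with OASIS. It was at least 23.3-fold higher. The adjusted p of 0.0019 in limma belongs to its fitted log2 fold change of 4.98, and its probe passed the filter only through the OASIS arrays. Both genes' groups were far apart on these probes. Other Sec16a probes changed by 0.46 (SE 0.13, adjusted p = 0.0624 in limma), under the fold limit, and by 1.91 (SE 0.21, adjusted p = 0.00898 in limma). Without OASIS array 1 only Sec16b was called, and without Venus array 2, or without OASIS array 2, Mia2 and Tfg were called as well, 4 genes in all.

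The remaining ER exit site genes did not reach the 2-fold limit. The log2 fold change was 0.97 (SE 0.13) for Tfg, which organises the sites, and 0.96 (SE 0.12) and 0.67 (SE 0.12) for Mia2 and Mia3, the latter encoding TANGO1, which is needed for export of bulky cargo such as procollagen. It was 0.72 (SE 0.13) for Sec23ip, a Sec23 partner, and 0.65 (SE 0.15) for Preb, also called Sec12, the exchange factor that loads Sar1 with GTP. For the subunits of the ubiquitin ligase that acts on Sec31, it was 0.45 (SE 0.12) for Klhl12 and -0.29 (SE 0.12) for Cul3, and 0.31 each for its calcium-dependent adaptors Pef1 (SE 0.10) and Pdcd6 (SE 0.11). Cul3 was the gene that did not pass the adjusted p (0.137). A second Mia2 probe, A_52_P168319, changed by -0.97 (SE 0.14, adjusted p = 0.0163), opposite to the brightest.

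Of 18 cargo receptors and fusion proteins that travel in COPII vesicles, 6 were called higher and 0 lower, where 6.21% and 1.85% of all genes were, with a median log2 fold change of 0.72. The SNARE protein Bet1 changed by 2.14 (SE 0.15, adjusted p = 0.00447), reading -1.50 and -1.16 with Venus and 0.80 and 0.82 with OASIS. The cargo receptor Surf4 changed by 2.01 (SE 0.11, adjusted p = 0.00286), reading 3.55 and 3.61 with Venus and 5.66 and 5.53 with OASIS. Lman1 and Mcfd2, which together carry coagulation factors, changed by 1.57 (SE 0.10) and 1.38 (SE 0.16), and the p24 proteins Tmed7 and Tmed3 by 1.43 (SE 0.20) and 1.10 (SE 0.12). For none of these 6 did the groups overlap by brightest probe, but they were picked by the threshold, so this adds no support. Both OASIS arrays lay above both Venus arrays for 31.5% of all genes. On a further tested probe, Lman1 changed by 0.62 (SE 0.15), Mcfd2 by 1.63 (SE 0.28) and Tmed3 by 0.22 (SE 0.22). Of these further probes, only that of Mcfd2 passed the threshold. By the adjusted p alone 11 genes were higher and 2 lower, Ergic1 (-0.60, SE 0.11) and Cnih4 (-0.41, SE 0.10), which are named because they were the 2 lower; of all genes 18.6% were higher and 18.1% lower. The ER exit site and passenger lists use the same 4 arrays as the COPII coat genes and are not independent of them. Like the COPII coat genes, both lists were chosen with earlier results of these data known. Setting their counts against all genes is therefore description only.

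**Figure D5:**
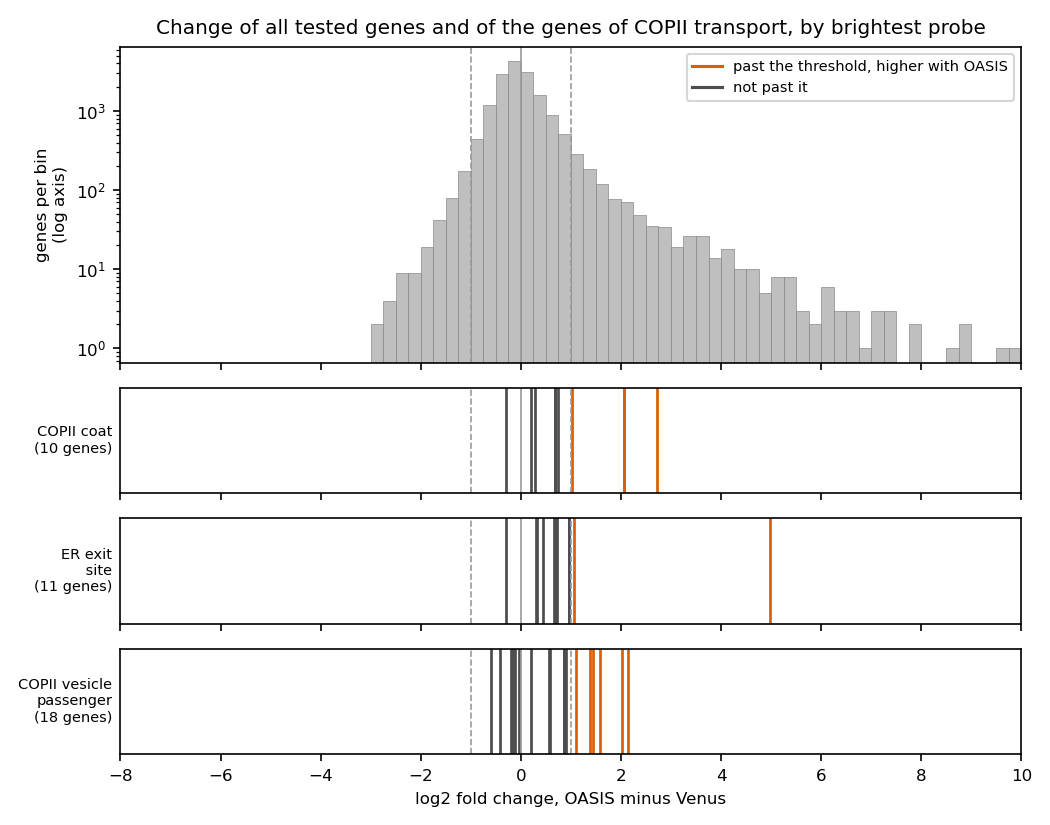
Log2 fold change (OASIS minus Venus, x axis) by brightest probe. The upper panel counts the 16318 tested genes per bin of 0.25 on a log axis, and each line below is a gene of a list, orange where it was called higher. Of the 10 COPII coat genes, 9 lie right of 0 and 4 past 2-fold, and Sec16b stands apart at a fitted 4.98.

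Markers of other cells were measured on the same arrays, and in bulk RNA a change in the number of cells of a type and a change in RNA per cell cannot be told apart. The summed intensity of 5 tubule markers, in multiples of the 75th percentile, was 12.1 to 14.3 with Venus and 14.7 to 17.3 with OASIS, with 3 of 5 well above background on all arrays and Umod on none. Of these 3, by brightest probe, the endocytic receptor Lrp2 was called higher (log2 fold change 1.62, SE 0.23, adjusted p = 0.0148), while the change was -0.39 (SE 0.10, adjusted p = 0.0538) for Aqp2 and 0.08 (SE 0.14, adjusted p = 0.719) for Cdh16. For 4 endothelial markers it was 0.0329 to 0.0412 and 0.0430 to 0.0446, with 1 well above background on all arrays and Cdh5, Emcn and Kdr on none. For 4 mesangial and fibroblast markers it was 3.58 to 4.45 and 3.08 to 4.01, with 2 well above background on all arrays and Lum on none, and for 3 leukocyte markers 2.37 to 2.61 and 2.25 to 2.59, with 2 on all and Adgre1 on none. Pdgfra, a receptor on mesangial cells and fibroblasts, read -8.35 and -8.34 with Venus, not well above background, and -2.95 and -3.31 with OASIS. It was at least 7.96-fold higher. The adjusted p of 0.00147 in limma belongs to its fitted log2 fold change of 5.22, which uses the dim Venus values. The tubule and endothelial sums were higher on both OASIS arrays, as was Pdgfra. In the list of Pdgfra, Dcn changed by -0.58 (SE 0.26) and Pdgfrb by -0.10 (SE 0.17), neither past the adjusted p. Pecam1, the endothelial marker well above background, changed by 0.26 (SE 0.12, adjusted p = 0.161 in limma). On its other probes, Lrp2 changed by 1.68, 0.01, -0.10 and -0.16. The part of other cells in the COPII result was not tested.

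In the deposited annotation, all 10 members carry the Gene Ontology term for the COPII vesicle coat, as 14 genes on the array do, and all 10 are among 163 genes of the KEGG pathway for protein processing in the ER. Only Sec13 of the 10 carries the nuclear pore term, and Sar1a and Sar1b carry GTPase activity. Sec24a and Sar1b share the band 11 qB1.3, and in RefSeq (GRCm38.p6), where all 10 members were found, 1 gene, a snoRNA, lies between them. By brightest probe these neighbours changed by 0.28 and 0.69. Sec24b and Sec24d lie on chromosome 3 in bands qG3 and qG1, and changed by -0.30 and 2.72.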

How the data were processed

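Expression was measured in 4 samples on 1-colour Agilent arrays of 1 slide read in 1 scan. The authors deposited spot intensity from Agilent Feature Extraction 12.1.0.3, corrected for background, and marked each spot as outlier, saturated or well above background. A second deposited table gives scaled intensity, with a detection score (highest when a spot is well above background), gene symbols, bands and Gene Ontology terms. A genome of the array's build was not used here, so no coordinates or sequences are given, and promoter motifs were not analysed here.

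Control and outlier spots were left out, and log2 values were taken with each array's 75th percentile as 0. Each member had 1 spot per probe. Probes were tested that were well above background, by at least 0.5 of their spots, on all arrays of either group. They were fitted together with limma 3.58.1 (lmFit and eBayes) in R 4.3.3, and Benjamini-Hochberg adjustment ran over the whole set of probes. Fold changes are on the log2 scale and errors are SE of the fit with n = 2 per group. The precision is limited by the number of arrays. Where both arrays of a group were not well above background, a bound set the mean of the brighter group against the mean of, per array, the higher of the probe's value and the lowest value well above background. The fit was also run on simulated data with limma's own estimates of spread and independent arrays. That run cannot show how the fit behaves if the samples are technical replicates.

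The text names all 10 COPII coat genes with every probe, every ER exit site gene, the passenger genes past the threshold, and Creb3l1. Values of some marker genes are not reported here. The members and lists were chosen with earlier results of these data known. Alternatives were scaling to the median, quantile normalization, normexp with an offset of 50 (on median intensity), keeping dim probes, the authors' scaled values, keeping outlier spots, a filter on dim probes over all 4 arrays, representing a gene by the mean of its probes or by the probe with the smallest p, the methods' t-test, an intensity trend, an adjusted p under 0.05, the replicate block and leaving out each array. Leaving out spots with an outlying background, the paralog differences without each array, and their range over all probe combinations, were chosen after seeing the data.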

Additional observations from a re-analysis of the deposited data

How the results depend on the processing

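Sar1a and Sec23a were called higher under each of 18 alternatives, and Sec24d under each of the 17 that kept its probe; leaving out spots with an outlying background left Sec24d without a value. Over the alternatives, 3 to 6 COPII coat genes were called higher. The direction of Sec24b reversed with the mean of its probes (0.13), the probe with the smallest p (1.14) and spots with an outlying background left out (1.17), which last took another probe. That of the Sec24a probe A_66_P117506 ranged from -0.23 to 0.054 as each array was left out (0.054 without Venus array 1, 0.012 without OASIS array 2). Sec24a was called with the mean of its probes (1.17), the probe with the smallest p (2.14) and outlying backgrounds left out (2.18). The number of COPII coat probes called higher, 11, became 5 under normexp, which left the dimmer probes under 2-fold, and 5 under the methods' t-test, from which 3 of the 6 passenger genes passed. With the mean of a gene's probes, 1 passenger gene, Ergic1, was lower. The ER exit site genes called higher went from 2 to 1 under the filter on all 4 arrays, which removed Sec16b, and ranged from 1 to 4 as each array was left out. The change of Sec23a minus Sec23b was 1.42 with quantile normalization, 1.27 with normexp and 0.83 with the mean of probes, and with the mean of probes that of Sar1a minus Sar1b was 0.65 and of Sec24a minus Sec24b 1.04. Over all probe combinations these changes ran from 0.27 to 1.39, from -0.0677 to 1.38 and from -1.22 to 2.59. Of 179 values of COPII coat genes under alternatives, 166 kept their direction and their side of the threshold, as did 318 of 344 of their probes. Part of this agreement was fixed in advance. The adjusted p under 0.05 reused the main fit, and the other choices of probe could not change the fold of a gene with 1 probe.

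The groups share the replicate numbers 1 and 2, and the labels give no batch behind them. Over the tested probes, the deviations of Venus array 1 and OASIS array 1 from their group means correlated at 0.259. The main fit did not pair the samples by number, and whether the numbers mark a shared batch was not tested. With the replicate block, 4 COPII coat genes and 11 of their probes were called higher. Dim probes give only bounds, and 2 arrays a group limit each error.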

Other observations

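Sec31b (probe A_66_P105958), the second Sec31 gene, is not among the 10 genes followed but carries the same Gene Ontology term. It read -4.71 and -5.05 with Venus and -4.83 and -4.81 with OASIS, so that the groups overlapped, and its log2 fold change was 0.06 (SE 0.15, adjusted p = 0.80 in limma). The non-coding gene 6230400D17Rik has probes described as resembling Sec24c, and those that were tested, A_55_P2324360 and A_55_P2934832, changed by 0.10 (SE 0.10) and -0.03 (SE 0.16), neither past the threshold. An unnamed probe described as resembling Sec23b, A_52_P875481, was not well above background on any array.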
